A study of Homo sapiens with 2 samples.

Results

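The genes for the 5 families of chromosomal histones, H1, H2A, H2B, H3 and H4, were examined for open chromatin in the H1 line, a widely used line of pluripotent human embryonic stem cells. The members were chosen by symbol: every protein-coding gene named H1-, H2AC, H2BC, H3C or H4C followed by a number. This gave 73 genes of 20033, namely 10 of H1, 17 of H2A, 18 of H2B, 13 of H3 and 15 of H4. A region of open chromatin belonged to them when one of its summits lay within 1 kb of an annotated transcript start of a member. It also belonged when a summit lay inside a cluster, a run of neighbouring members less than 100 kb apart. A cluster was taken from the first to the last annotated base of its genes, long annotated spans included. This gave 93 regions of 160327, of which 76 were at member starts and 17 lay elsewhere within the clusters. The choice rested on names and positions, so accessibility had no part in it except that a summit had to be near. The cells came from frozen stocks that were thawed, treated with DNase I against DNA from dead cells, purified on Ficoll and assayed by Omni-ATAC, in which a transposase cuts open DNA. The 2 samples form 1 untreated group and share 1 list of regions, and the labels do not say that they came from separate cultures. No value per sample is in the list, so every number below describes that list, with no replicate spread and no test. Intervals are 95% exact binomial (Clopper-Pearson) intervals, or the matching order-statistic interval for a median, and cover counting error over genes only.

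Replication-dependent histone genes supply the protein that packages newly copied DNA, and they are transcribed in S phase. They are short, lack introns, and give an mRNA that ends in a stem-loop in place of a poly(A) tail. Most sit in tight clusters, which gather in a nuclear body built around NPAT, the coactivator that cyclin E and CDK2 switch on at the start of S phase. H2A, H2B, H3 and H4 form the nucleosome core, and H1 binds the linker DNA between cores. Embryonic stem cells have a short G1 phase, so a large share of such cells is in S phase at any time.

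The promoters of the families are built from different short elements, and the sequences that follow show the highest and the lowest or missing cases. Capitals mark the octamer ATTTGCAT, which POU2F1 binds, the box CCAAT, which NF-Y binds, the TATA box TATAAA, the H4 core GGTCCG within the site that HINFP binds, and the H1 box AAACACA, each on either strand. Where matches overlap they run together in 1 stretch of capitals, as in the TATA string and its reverse complement. The first 3 lie between the starts of an H2A and an H2B gene that point away from each other, on the plus strand of GRCh38. They are the pair with the highest fold (chr6:27146856-27147105), the lowest pair whose starts were close together (chr6:27893186-27893424), and the 1 pair without a region (chr6:25726563-25726776).
H2BC12/H2AC12: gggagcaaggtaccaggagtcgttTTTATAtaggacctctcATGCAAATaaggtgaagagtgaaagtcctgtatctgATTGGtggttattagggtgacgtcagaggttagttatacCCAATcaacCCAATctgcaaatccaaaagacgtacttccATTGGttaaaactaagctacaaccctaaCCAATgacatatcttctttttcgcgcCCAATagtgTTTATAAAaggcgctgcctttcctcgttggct
H2AC17/H2BC17: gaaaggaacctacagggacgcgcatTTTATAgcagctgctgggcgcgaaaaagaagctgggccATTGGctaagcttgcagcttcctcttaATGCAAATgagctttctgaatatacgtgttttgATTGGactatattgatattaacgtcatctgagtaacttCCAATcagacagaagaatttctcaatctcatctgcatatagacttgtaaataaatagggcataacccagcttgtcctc
H2AC1/H2BC1: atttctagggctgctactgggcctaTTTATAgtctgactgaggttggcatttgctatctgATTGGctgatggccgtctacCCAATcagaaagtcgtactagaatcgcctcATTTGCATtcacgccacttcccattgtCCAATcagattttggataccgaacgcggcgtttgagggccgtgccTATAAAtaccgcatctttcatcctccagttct
The testis pair H2AC1/H2BC1 holds the octamer, the CCAAT box and TATAAA, as do the other pairs printed here. Not every open pair does: H2AC25/H2BC26 and H2AC15/H2BC15 hold CCAAT alone of the 5 strings.

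The next sequences give the 150 bp before the canonical start, the start of the transcript that Ensembl marks as canonical, read along each gene's own strand. H4C11 (chr6:27823942-27824091, plus strand) had the highest fold of the H4 genes, H4C16 (chr12:14771132-14771281, minus strand) the lowest, and H4C7 (chr6:26246997-26247146, minus strand) had no region.
H4C11: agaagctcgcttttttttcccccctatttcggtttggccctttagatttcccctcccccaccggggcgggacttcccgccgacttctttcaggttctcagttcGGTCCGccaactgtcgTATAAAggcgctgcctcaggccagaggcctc
H4C16: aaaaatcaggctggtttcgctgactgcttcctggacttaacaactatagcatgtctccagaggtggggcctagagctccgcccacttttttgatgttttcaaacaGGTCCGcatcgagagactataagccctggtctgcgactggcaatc
H4C7: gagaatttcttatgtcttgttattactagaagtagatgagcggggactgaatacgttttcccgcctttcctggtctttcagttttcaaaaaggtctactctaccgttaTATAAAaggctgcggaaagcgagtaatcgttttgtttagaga
H3C6 (chr6:26224985-26225134, plus strand) and H3C10 (chr6:27809901-27810050, plus strand) were the highest and the lowest of the H3 genes.
H3C6: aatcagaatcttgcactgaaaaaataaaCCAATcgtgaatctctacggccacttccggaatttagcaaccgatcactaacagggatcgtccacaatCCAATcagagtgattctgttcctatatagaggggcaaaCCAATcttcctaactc
H3C10: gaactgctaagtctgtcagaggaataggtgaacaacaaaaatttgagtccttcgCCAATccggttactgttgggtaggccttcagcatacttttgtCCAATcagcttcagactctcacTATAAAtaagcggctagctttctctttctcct
H1-2 (chr6:26056471-26056620, minus strand) was the highest H1 gene, and H1-6 (chr6:26108136-26108285, minus strand), the linker histone of the testis, had no region.
H1-2: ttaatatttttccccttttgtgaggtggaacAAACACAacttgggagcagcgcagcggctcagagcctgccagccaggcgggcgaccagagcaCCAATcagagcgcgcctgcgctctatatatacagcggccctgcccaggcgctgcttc
H1-6: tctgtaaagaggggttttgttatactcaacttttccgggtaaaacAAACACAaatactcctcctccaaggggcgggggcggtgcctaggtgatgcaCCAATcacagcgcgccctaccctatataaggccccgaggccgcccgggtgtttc

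Nearly all of the histone genes had open chromatin at a start. A summit lay within 1 kb of an annotated start in 67 of the 73 genes, or 91.8% (interval 83.0% to 96.9%), against 81.1% of all protein-coding genes. Among the 1166 other protein-coding genes whose canonical transcript spans at most 2 kb, the share was 35.5%. The fold, which is the authors' own enrichment of a summit over a background that the sources do not describe, was taken for the strongest such summit of each gene and set to 0 where there was none. Its median was 6.74 over the histone genes (interval 5.93 to 8.22), against 8.48 over all protein-coding genes. Where a region was present the medians were 7.24 and 9.71. The canonical start itself lay inside a region in 67 genes, against 73.1% of all genes. With the canonical start alone, 67 of 73 genes again had a summit within 1 kb, against 76.8% of all genes, and the medians were 6.74 (interval 5.93 to 8.13) and 7.72, so there the interval takes in the value of all genes. Over all annotated starts, each of 11 pluripotency genes had a region, with a median fold of 7.77. Of 8 genes of other tissues 2 had one, MYH2 with 11.2 and ALB with 5.11. At the canonical start the counts were 10 of 11 (median 6.64), without POU5F1, and 1 of 8, without ALB.

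Of the 6 genes without a region, 5 are named here: H1-6, H1-7, H2AC1, H2BC1 and H4C7. Among them, H1-6 and H1-7 encode linker histones of the male germ line, and H2AC1 and H2BC1 encode core histones of the testis. H4C7 was the only one of the 15 H4 genes without a region, and the nearest summit, at position −2801 from its start, had a fold of 2.33. For H2AC1 and H2BC1 the nearest summits were at positions 5943 and −6160 from the start (negative: upstream), both with a fold of 9.16. Both positions point to about the same place in the genome, so they are not separate measurements. For H1-6 the nearest was 3949 bp downstream, with 8.82, and for H1-7 it was 7772 bp downstream, with 5.43. Apart from the germ line members and the linker genes expressed outside S phase, 64 of 65 genes had a region. That is 98.5%, against 81.1% of all protein-coding genes. Their median fold was 7.74 (interval 6.35 to 8.55), which takes in the 8.48 of all genes. This set leaves out all but 1 of the 6 genes without a region, so its share and median are raised by that choice.

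**Figure D1:**
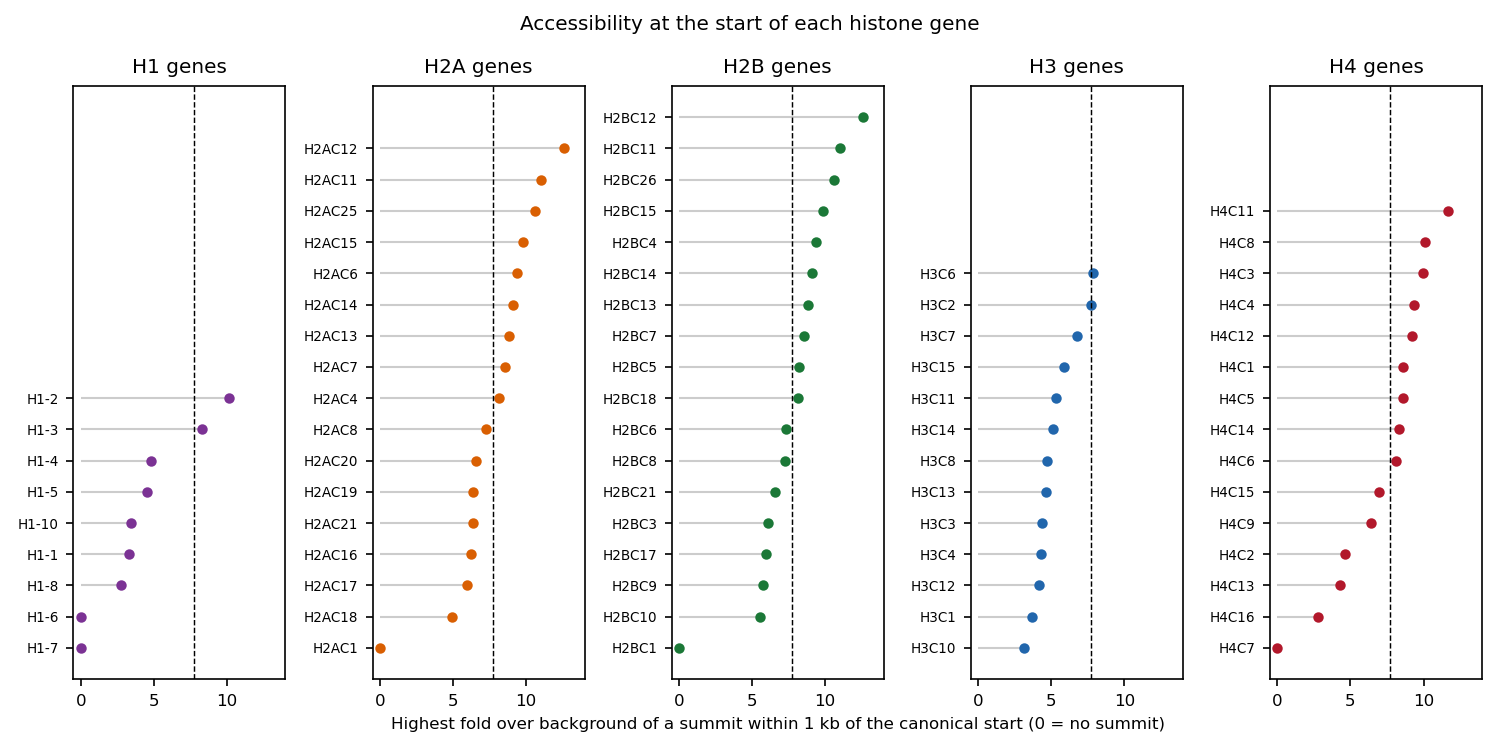
Highest fold over background of a summit within 1 kb of the canonical start of each histone gene, by family, with 0 for no summit; the dashed line is the median over all protein-coding genes, 7.72. Above the line lie 9 of 17 H2A, 10 of 18 H2B, 9 of 15 H4, 2 of 13 H3 and 2 of 10 H1 genes; 1 H1 gene is not drawn.

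H2A and H2B genes had median folds of 8.13 and 8.39, with regions at 16 of 17 and 17 of 18 genes. From here on the value of a single gene is that at its canonical start. H2AC12 and H2BC12 shared the highest value, 12.6, in 1 region of 962 bp (chr6:27146689-27147650). H2AC11 and H2BC11 followed with 11.0 in 1 region of 1210 bp (chr6:27132390-27133599), and H2AC25 and H2BC26 with 10.6 in 1 region of 1548 bp (chr1:228457224-228458771). These 3 regions each served an H2A and an H2B gene, so each is 1 measurement and not 2. The lowest H2A genes with a region were H2AC18 at 4.92, H2AC17 at 5.93 and H2AC16 at 6.22. The lowest H2B genes with a region were H2BC10 at 5.53, H2BC9 at 5.75 and H2BC17 at 5.93. H2BC6 stood at 7.31 at its canonical start, but its outermost annotated start, far upstream, lay in a region with a fold of 15.9 (chr6:26171741-26172523). That region also has a summit within 1 kb of the start of a long noncoding RNA gene, ENSG00000283064, and it gave the highest fold of the 93.

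H2A and H2B genes often form divergent pairs, with their starts back to back and the promoter elements between them. There were 13 such pairs with canonical starts at most 1 kb apart, of which 12 join an H2A and an H2B gene and 1 joins H3C7 and H2BC9. A region was shared by both starts in 12 of the 13, against 97.9% of 943 divergent protein-coding pairs, and in 11 a single region covered both starts, against 91.3%. The fold of the shared summit ran from 5.75 to 12.6 with a median of 8.98. The median was 11.2 over all divergent pairs and 12.6 over the 270 other pairs with starts 150 to 300 bp apart and a shared region, so the histone pairs lay below both. The strongest shared summit was between the starts in 12 of 12 histone pairs, against 82.9% of all pairs and 90.4% of the pairs of like spacing. It lay a median of 16 bp from the midpoint, against 52 bp and 38.5 bp.

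**Figure D2:**
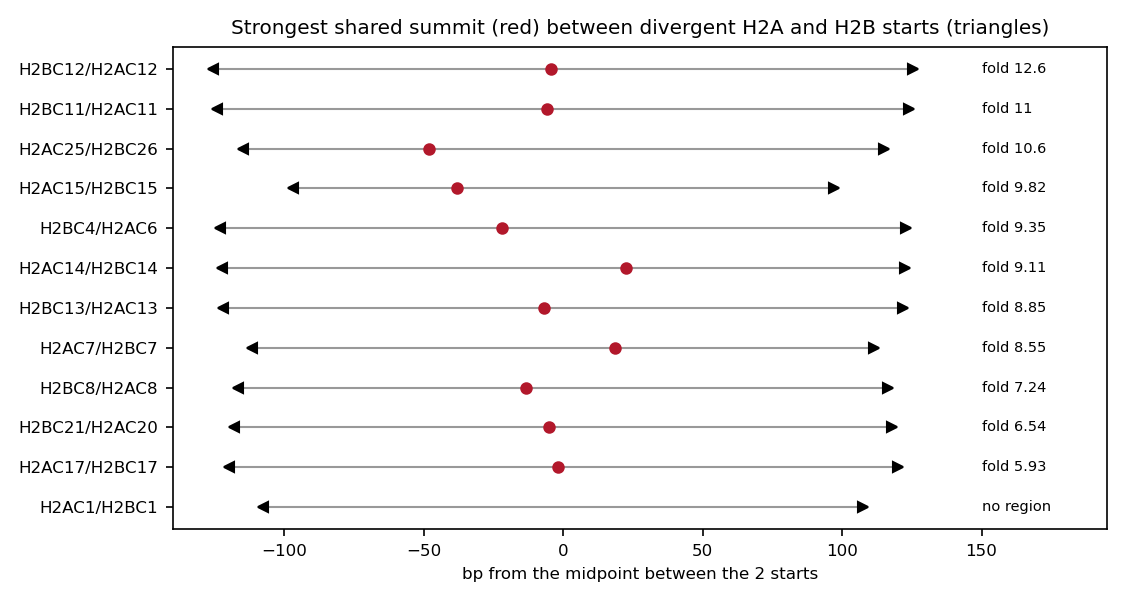
Position of the strongest shared summit (red) between the canonical starts (triangles) of the divergent H2A and H2B genes, in bp from the midpoint, with its fold at the right. Every summit lies between the starts, H2AC1/H2BC1 has none, and H3C7/H2BC9, whose starts are 979 bp apart, is left out for scale.

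Single pairs differed in where the summit sat. At H2BC12/H2AC12, whose starts are 251 bp apart, the summit was at −4.5 bp from the midpoint (negative: towards the lower coordinate), and at H2AC17/H2BC17, 240 bp apart, it was at −2 bp. At H2AC25/H2BC26 and H2AC15/H2BC15 it lay at −48 and −38 bp, in both cases nearer the H2A start. The spacing of H2AC1 and H2BC1, 215 bp, falls inside the range of the open pairs. H3C7 and H2BC9 lie 979 bp apart, and their shared summit, with the lowest fold of the pairs at 5.75, was 12 bp from the start of H2BC9. The 25 H2A and H2B genes in a divergent pair had a median fold of 8.85 and those outside one a median of 6.35, with regions at 23 of 25 and 10 of 10. The first median counts a shared region once for each of its genes, so its values are not separate measurements. Some genes outside a pair, such as H2AC18 and H2BC3, had a region that was also near the start of a histone pseudogene.

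H3 genes were open in 13 of 13 cases but at lower levels, with a median fold of 5.10, or 4.71 at the canonical start. H3C6 was highest with 7.84 (chr6:26224880-26225595, 716 bp), then H3C2 with 7.74 (chr6:26031743-26032360, 618 bp) and H3C7 with 6.74. The summit behind the value of H3C7 lay 614 bp downstream of the start, in a region of 1106 bp with 4 summits that covers the whole gene. The lowest were H3C10 at 3.11 (chr6:27809895-27810188, 294 bp), H3C1 at 3.66 (chr6:26020305-26020908, 604 bp) and H3C12 at 4.15. The other H3 genes lay between 4.33 and 5.90.

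H4 genes reached a median fold of 8.36, with regions at 14 of 15. H4C11 had 11.7 (chr6:27823683-27824973, 1291 bp), H4C8 10.1 (chr6:26285107-26285998, 892 bp) and H4C3 9.99 (chr6:26103631-26104338, 708 bp). From H4C4 at 9.35 down to H4C9 at 6.39 there were 8 more genes, all above the H3 median. The remaining H4 genes with a region were lower: H4C2 had 4.60, H4C13 4.32 and H4C16, which stands alone on chromosome 12, 2.78. The summit of H4C2 lay 857 bp downstream of its start, and the region over the start itself reached 4.37 (chr6:26026708-26027488). H4C16 reached 4.93 at another annotated start, where a region of 1145 bp lies (chr12:14769504-14770648).

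H1 genes were the least uniform family, with regions at 7 of 10 and a median fold of 3.35. H1-2, one of the main linker histones of dividing cells, had 10.1 in a region of 1639 bp that covers the whole gene (chr6:26054995-26056633), and H1-3 had 8.26 (chr6:26234685-26235158). H1-4 and H1-5 had 4.78 and 4.55. H1-10, which is expressed throughout the cell cycle, had 3.44 with its strongest summit 459 bp upstream (chr3:129315907-129316916), H1-1 had 3.27 (chr6:26017707-26018005) and H1-8, the oocyte linker histone, had 2.75 with its summit 425 bp downstream (chr3:129542887-129543812). Of the 6 members grouped as germ line, H1-1, H1-6, H1-7, H1-8, H2AC1 and H2BC1, 2 had a region, and both folds were among the 5 lowest of the 67. The grouping was by a list of names, and nothing measured here shows that H1-1 is a germ line gene. H1-1 carries the stem-loop and lies in the largest cluster.

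The 1 kb limit decided few cases. Each region was placed by its summit nearest to a histone gene start. The farthest such summits inside the limit were at H4C2 (857 bp, fold 4.60), H2AC16 (885 bp, 2.75) and H1-3 (887 bp, 4.50), and each of these genes had another region nearer its start. Just outside it were summits 1028 bp from H4C4 (2.94), 1299 bp from H1-10 (7.07) and 1559 bp from H1-3 (2.42). The summit near H1-10 (chr3:129314492-129315240) lay at the far end of the gene and was higher than that at its start.

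The strongest summits sat a little upstream of the starts, and those of H2A and H2B genes kept to a narrow place. Of 67 histone genes with a summit within 1 kb of the canonical start, 60 had it upstream, or 89.6% against 79.4% of 15381 protein-coding genes. It lay 50 to 200 bp upstream in 48 genes, or 71.6% against 42.7%, and within 200 bp of the start in 62, or 92.5% against 72.4%. The median position was −99 bp against −67 bp. By family the medians were −127 bp for H2A, −108 for H2B, −84.5 for H4, −51 for H3 and −36 for H1. All 16 H2A summits and 15 of 17 H2B summits lay 50 to 200 bp upstream, while 7 of 13 H3, 9 of 14 H4 and 1 of 7 H1 summits did. Many of the H2A and H2B values are not separate measurements, because a summit shared by a divergent pair is counted for both genes. A summit between starts that point away from each other is upstream of both by position, and close spacing bounds its distance.

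**Figure D3:**
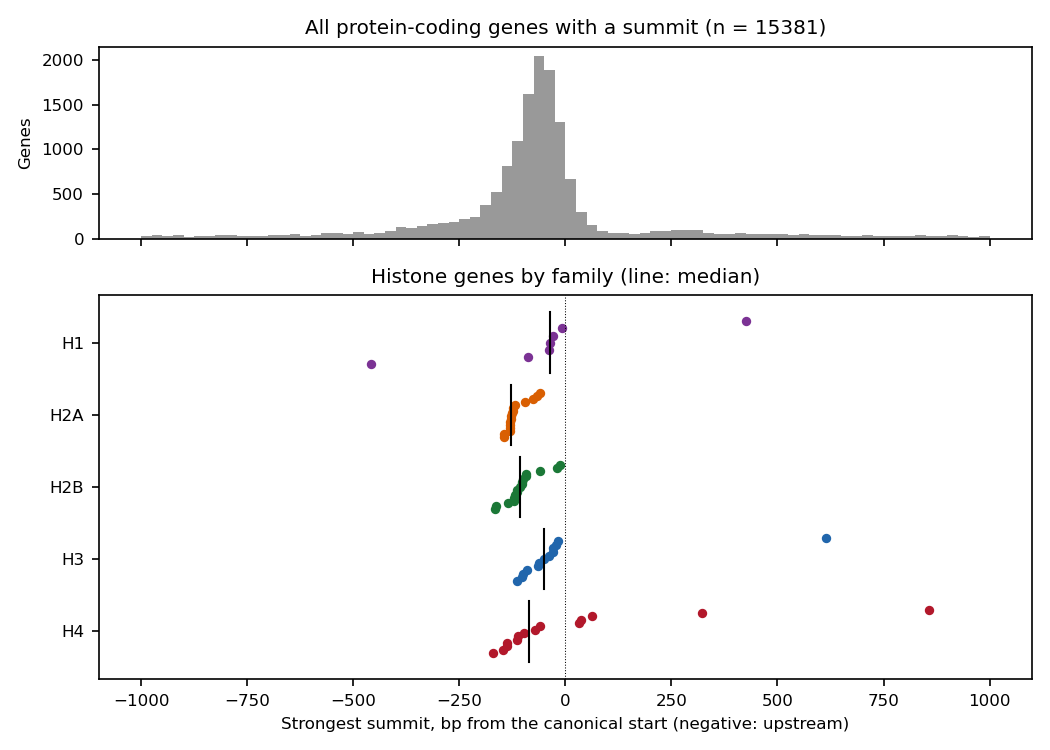
Position of the strongest summit within 1 kb of the canonical start, as a histogram over 15381 protein-coding genes (top, number of genes in each bin) and for each histone gene by family (bottom, with the family median as a line). The H2A and H2B summits fall within 200 bp upstream, and 5 genes of the H1, H3 and H4 families have a summit over 200 bp away.

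Open chromatin often ran across the whole of these short genes, which have a median canonical span of 492 bp. Regions covered a median of 79.0% of the span, and 22 of 73 genes were covered wholly, against 1.63% of the other genes of at most 2 kb, whose median span is 1171 bp. Among genes with a region the shares wholly covered were 32.8% and 4.59%. H4 genes accounted for 13 of the 22, out of 15, followed by 5 H2A genes, 2 H2B genes, H3C7 and H1-2. Median coverage was 100% for H4, 92.5% for H2A, 72.8% for H2B, 69.9% for H3 and 27.6% for H1. H4 spans are the shortest, with a median of 397 bp against 497 for H2A, 502 for H3 and 792 for H1, and the part of gene length in the coverage was not tested.

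The elements in the promoter window, from 250 bp upstream to 50 bp downstream of the canonical start, followed the families. The octamer ATTTGCAT was in 26 of 73 windows, or 35.6% against 1.62% of all 20033 protein-coding windows. All 26 belonged to H2A (12 of 17) and H2B (14 of 18) genes, and a shared window between a pair can give the same match to both genes. In H2B windows it began at a median of −49 bp and was on the gene's strand in 13 of 14 cases. Its positions there ran from −45 to −149 bp, with none between −49 and −104 bp. In H2A windows it began at a median of −194.5 bp, and was on the opposite strand in all but 1 case. There the positions ran from −98 to −209 bp, with none between −130 and −192 bp, so neither median marks a single common place. CCAAT was in 61 windows, or 83.6% against 36.1%, and in every H2A, H2B and H3 window. At least 3 copies stood in 33 windows, against 3.88% of all windows, 15 of them H2A and 15 H2B. In H3 windows all 30 matches were on the gene's strand, and H3C10 and H3C6 hold 2 and 4 of them upstream of the start, of which 1 of H3C6 lies before the stretch printed above.

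TATAAA was in 47 histone windows, or 64.4% against 9.71%, and began 20 to 40 bp upstream on the gene's strand in 39, against 3.95% of all genes. GGTCCG was in 13 of 15 H4 windows, each time on the gene's strand with its first base 44 to 47 bp upstream, against 14.7% of all windows with the string anywhere on either strand. The 2 H4 windows without it were those of H4C1 (fold 8.63) and H4C7 (no region). The same 2 windows were the only histone windows with the E2F strings TTTCCCGC or TTTGGCGC, which 3.08% of all windows hold. AAACACA was in 8 of 10 H1 windows, against 4.19% of all windows and 3 of the other 63 histone windows. Those 8 windows hold 10 matches, of which 7 were on the gene's strand, beginning at −82 to −242 bp. In H1-1 and H1-7 the string was on the opposite strand alone. The string GGGCGG, the GC box that SP1 binds, was in 19 histone windows, or 26.0% against 61.3%. A match is a run of letters and not a shown binding site.

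**Figure D4:**
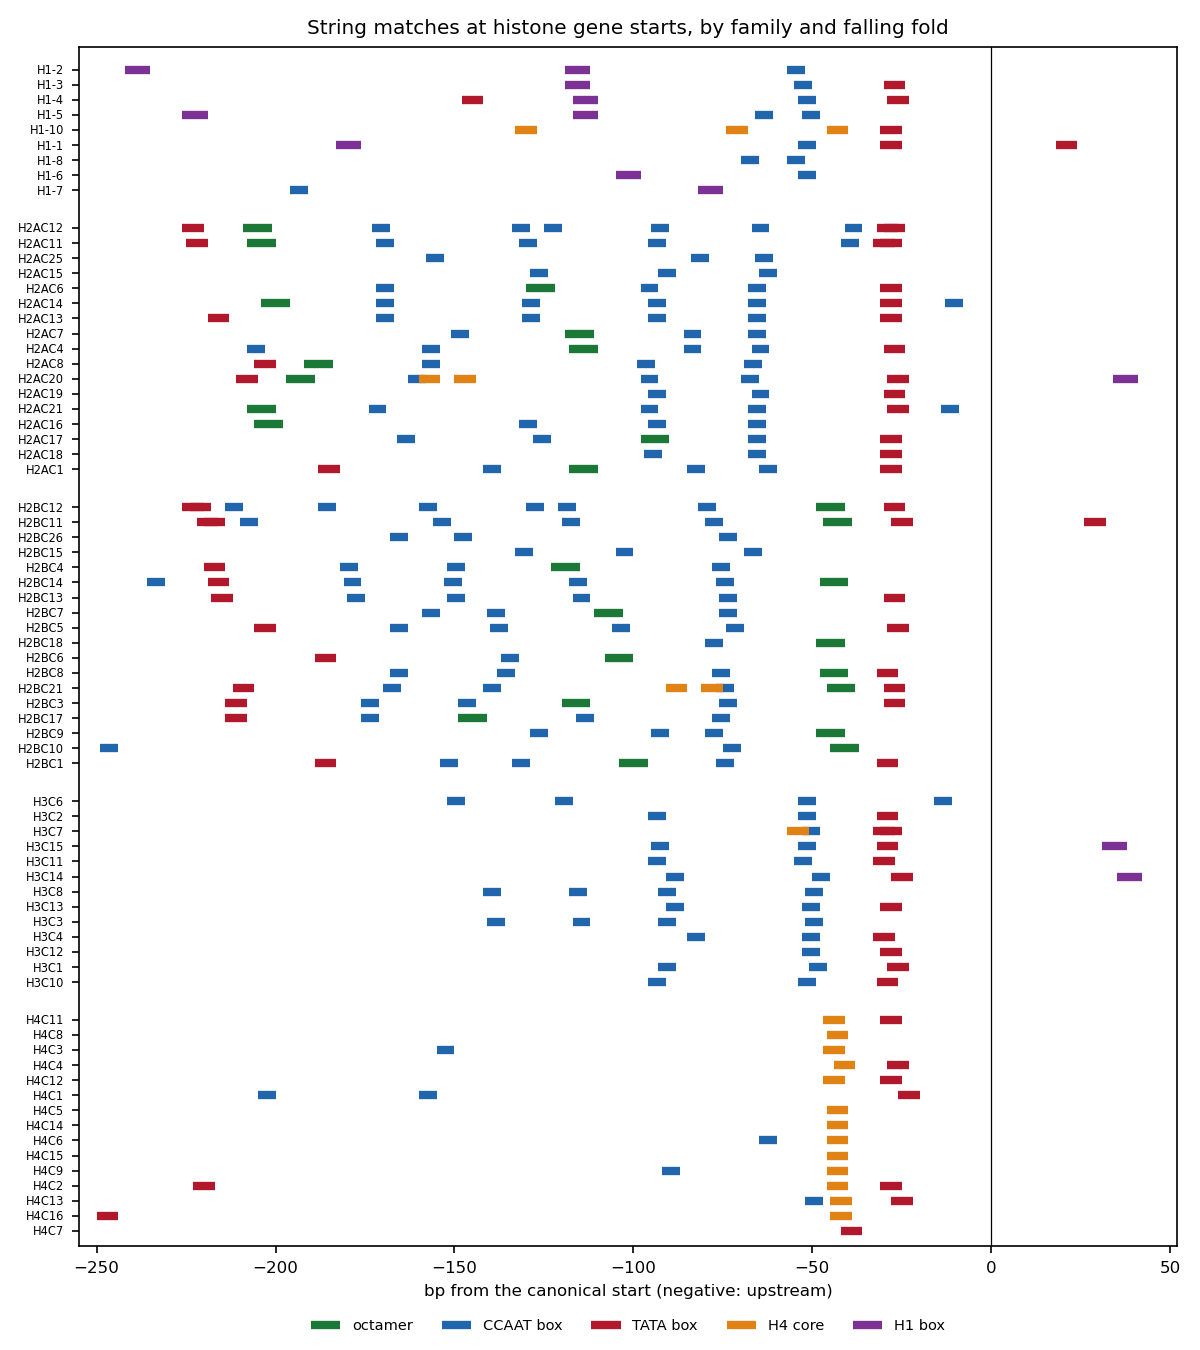
Positions of the matches to 5 strings, on either strand, from 250 bp upstream to 50 bp downstream of the canonical start, 1 row per histone gene apart from 1 H1 gene that is not drawn, ordered within each family by falling fold. The H4 core lines up at 44 to 47 bp upstream in 13 of 15 H4 genes, octamers appear in H2A and H2B rows alone, and TATA boxes gather about 30 bp upstream.

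Neither the octamer nor TATAAA went with a higher median fold within the H2A and H2B families. H2A genes with the octamer had a median of 7.68 and those without it 8.85, and for H2B the medians were 7.27 and 9.34. For TATAAA the medians were 7.24 with it and 9.18 without it in H2A, and 7.76 and 8.33 in H2B. The groups without the octamer hold 5 H2A and 4 H2B genes, and those without TATAAA 4 and 6. A match on either strand anywhere in the window counted, so some genes, such as H2BC4 for TATAAA, hold only the string of the divergent partner. Paired genes also share a fold, and a link between string and fold was not tested. H1-2, the H1 gene with the highest fold, has no TATAAA in the window, while H2AC1 and H2BC1, with no region, hold the octamer, 3 copies of CCAAT and TATAAA.

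Histone promoters were poor in G+C but not in CpG for that content. The median G+C content of the 300 bp window was 44.3% against 63.7% over all protein-coding genes, and 59 of 73 windows were under 50%, against 16.1%. The ratio of observed to expected CpG had a median of 0.756 against 0.775. Of the 3794 other genes with a G+C content between 38.7% and 54.3%, the 10th to 90th percentile of the histone windows, 52.9% had a region at a start, and their median fold was 3.52. Of the 995 that also matched the 10th to 90th percentile of the CpG ratio (0.486 to 1.02), 82.7% had a region and the median was 9.81. So the share of histone genes with a region, 91.8%, was above both, while their median of 6.74 lay between. Among the genes without a region, H1-7 had a CpG ratio of 0.142, while H1-6, H2AC1, H2BC1 and H4C7 had ratios from 0.756 to 0.902.

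The genes fell into 6 clusters of 2 members or more and 5 single genes, among them H4C16, H1-7, H1-10 and H1-8. The largest cluster, from H1-1 to H4C8 (chr6:26017032-26285638), spans 268.607 kb and holds 32 genes, of which 30 had a region, and 49 regions, or 18.2 per 100 kb. The cluster from H2BC13 to H2BC17 (chr6:27807479-27893891) had regions at 16 of 16 genes and 17.4 regions per 100 kb. That from H2BC11 to H2AC12 (chr6:27125897-27147562) is short, 21.7 kb with 5 genes, and had 27.7 per 100 kb. On chromosome 1 the cluster from H2BC18 to H2AC21 (chr1:149782689-149887965) had regions at 11 of 11 genes and 14.2 per 100 kb, and H2AC25 and H2BC26 (chr1:228434777-228463104) had 4 regions in 28.3 kb. H2AC1 and H2BC1 (chr6:25723397-25727345) had none. The whole genome had 5.46 regions per 100 kb, chromosome 6 had 6.25 and chromosome 1 had 6.07. Between the clusters of chromosome 6 the density was 4.49, 8.21 and 11.4 per 100 kb.

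Levels differed between the clusters as well. The median fold per gene was 11.0 in H2BC11 to H2AC12, 7.79 in H1-1 to H4C8, 7.54 in H2BC13 to H2BC17 and 6.35 in H2BC18 to H2AC21. The clusters hold different mixtures of families, and the part of that mixture in the order was not tested. Regions covered 19.0%, 11.3%, 13.5% and 9.50% of these 4 clusters, against 2.93% of the genome. The widest gap joined within a cluster was 29847 bp, between H1-2 and H2BC4, and the smallest that was not joined was 226889 bp, between H1-10 and H1-8.

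**Figure D5:**
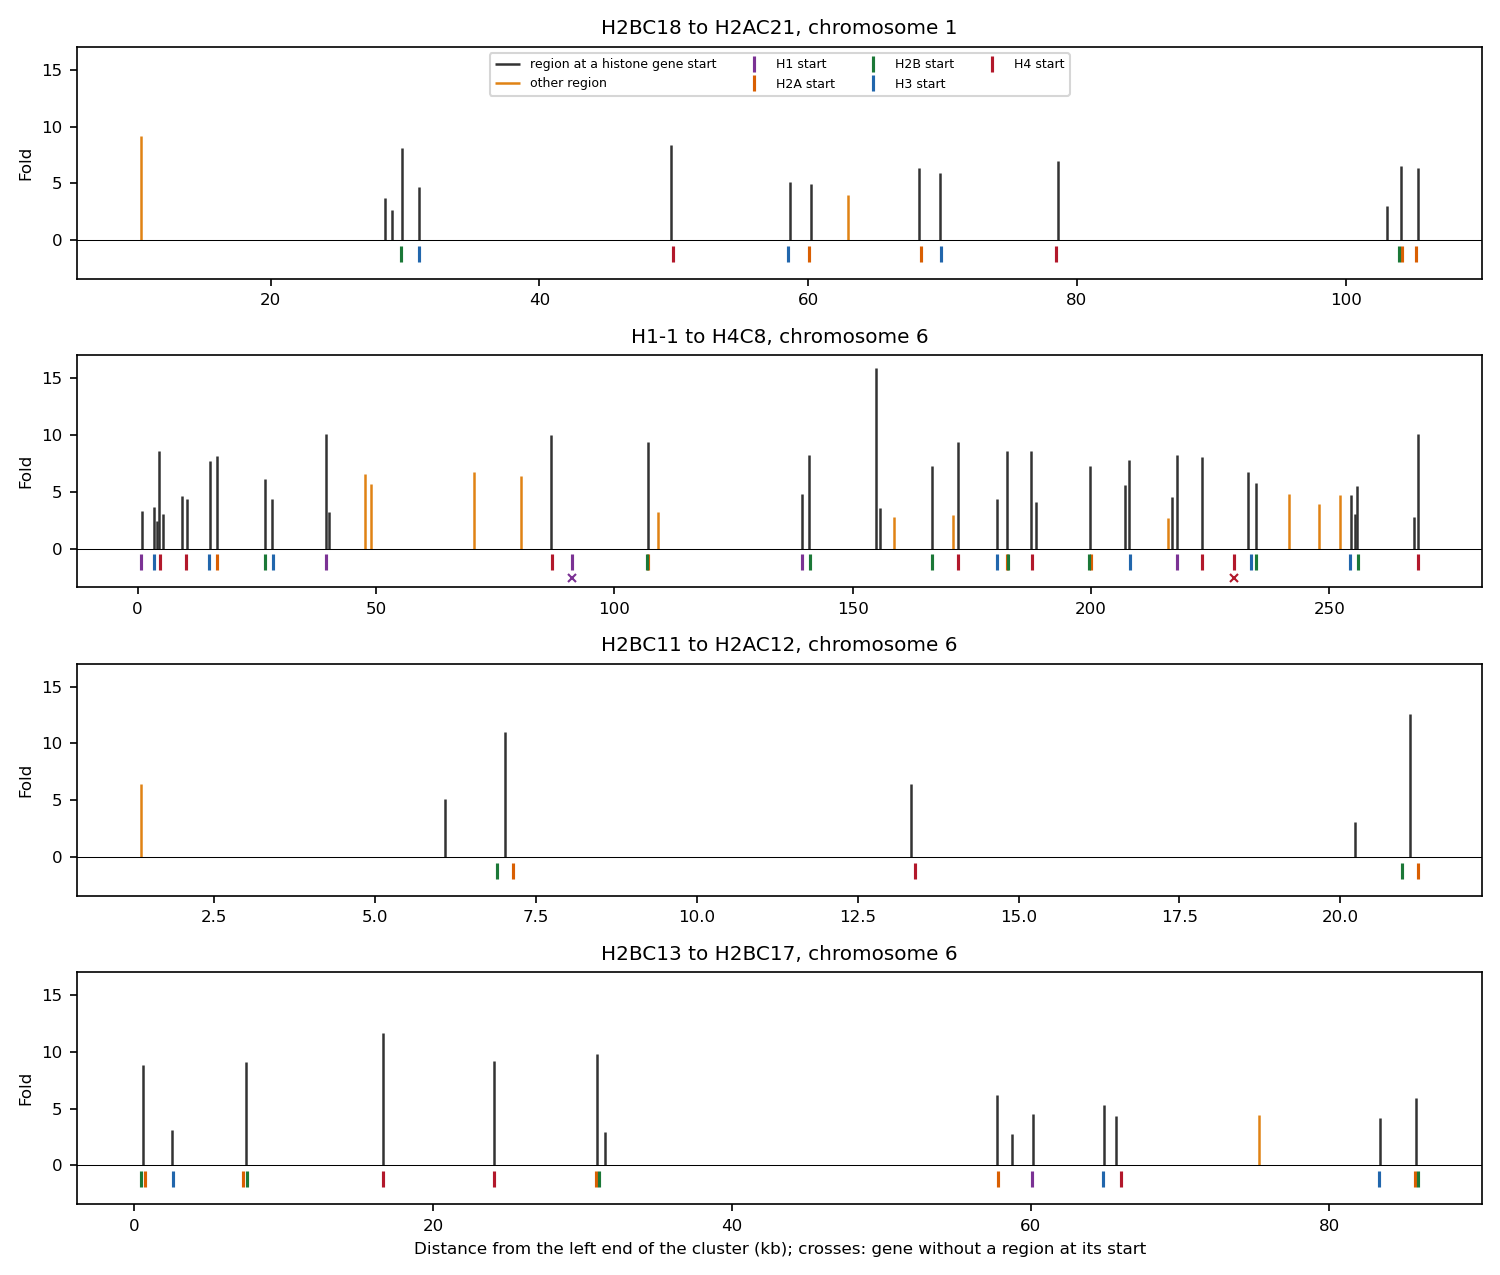
Strongest fold of each region (vertical lines) along the 4 clusters with the most genes, in kb from the left end, with the canonical starts of the histone genes below the axis in the colour of the family and crosses at genes without a region. Most lines stand at a histone gene start (black), and 15 of the 17 other regions (orange) are shown, all but 1 of them below a fold of 7.

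Regions at histone gene starts were narrower than those at starts in general. The 76 regions had a median fold of 5.69 and a median width of 659.5 bp, and 52.6% held more than 1 summit, while the 23933 regions at any protein-coding start had medians of 7.24 and 858 bp and 63.8%. The list as a whole had 5.38, 447 bp and 30.7%. Of the 76 regions, 54 lay at the start of 1 member, 20 of 2 and 2 of 3, and 23 members had a strongest region that was also that of another member.

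The 17 regions of the clusters that were away from histone starts had a median fold of 4.79 and a median width of 336 bp, and 4 of them held more than 1 summit. The strongest, with a fold of 9.15 (chr1:149792494-149793412), lies inside the long annotated span of H2BC18. It has a summit within 1 kb of the start of a long noncoding RNA gene, ENSG00000233030. The next, with 6.71 (chr6:26087224-26088169), has a summit within 1 kb of a start of HFE, another protein-coding gene. A region of 6.60 lay between the starts of H1-2 and H4C3 (chr6:26064521-26064856), with another of 5.65 close by (chr6:26065963-26066221). A region of 6.46 (chr6:27127102-27127466) lies 5284 bp from the start of H2BC11. Of the 17 regions, 3 had a summit within 1 kb of the start of another annotated gene. The core of the motif of the insulator protein CTCF was searched on both strands within 150 bp of the summit. It was in 0 of the 76 and 0 of the 17 regions, against 3.45% of all regions.

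The 3′ stem-loop, a feature of the mRNA that the choice of genes did not use, marked the replication-dependent members. A string for the stem-loop, in which the middle bases of the stem and the last base of the loop were left free, was searched to 300 bp past the gene's end. In the members the search began at the coding start. The string was found on the gene's strand in 66 of 73 genes, and began 26 to 71 bp after the stop codon with a median of 39.5. Over all protein-coding genes, members included, it was in 0.424%, searched there only in the last exon and 300 bp past it. The 4 commonest forms are printed with the 4 loop bases in capitals, since they divide H4 from the other families.
H4 form 1: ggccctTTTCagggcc
H4 form 2: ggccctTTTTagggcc
Common form 1: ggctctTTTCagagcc
Common form 2: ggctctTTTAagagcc
The first was in 10 genes and the second in 4, all of them H4. The third was in 40 and the last in 9 genes of the H1, H2A, H2B and H3 families. H2AC11, H2AC20 and H2AC15 each had a form of their own.

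The 7 genes without this string included H1-7, H1-8, H1-10, H3C6, H2BC10 and H4C13. The first 3 of these are linker histone genes outside the replication-dependent set, so the symbols chosen take in some genes to which the name of the group does not apply. A region was at 62 of the 66 genes with the stem-loop and at 5 of the 7 without it. H2AC1, H2BC1, H1-6 and H4C7 carry the stem-loop and had no region. The median fold was 7.24 with the stem-loop and 3.44 without it. The genes without it include several of the H1 family, which had the lowest median fold, and also H3C6, the highest H3 gene. The part of family in this difference was not tested.

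Part of the chromosome 1 cluster is present in near-identical copies, and there the deposited values of a copy are uncertain, because short reads from one copy can align to the other. Within 500 bp of their starts, H4C14 and H4C15 shared 100% of their 50-base words, H2AC18 and H2AC19 99.9%, and H3C14 and H3C15 99.6%. Their folds were 8.36 and 6.93, 4.92 and 6.35, and 5.10 and 5.90. The regions at H3C14 and H3C15 were both 1114 bp wide with 3 summits, and those at H4C14 and H4C15 were 1191 and 1207 bp wide with 4 summits each. How the authors treated reads with several places in the genome is not given in the sources used here. Elsewhere the sharing was lower: 43.3% for H4C11 and H4C12, and under 10% in 57 of the 73 genes.

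Apart from germ line variants, the genes of proteins that replace or handle these histones had median folds above that of the 73 histone genes. All 9 genes of replacement variants, most of which are made outside S phase, had a region, with a median fold of 10.2. CENPA, the centromeric H3, had 18.3, H2AZ2 12.6 and MACROH2A2 12.2. None of 10 variant genes of the germ line had one, namely H3-4, H3-5, H2BN1, H3Y1, H2AP, H2BW1, H2BW2, H2AB1, H2AB2 and H2AB3. All 13 genes of the histone transcription list had a region, with a median of 11.4: HINFP, which binds the H4 promoter element, had 18.1, CASP8AP2 (FLASH), which joins NPAT in the histone locus body, 15.8, and NPAT itself 13.2. All 9 genes of histone mRNA processing had one too, with a median of 11.9, led by CSTF2 with 19.1, ERI1 with 14.1 and LSM11 with 13.2. The 19 histone chaperone genes all had one, with a median of 11.2, led by HAT1 with 15.3, CABIN1 with 14.7 and UBN1 with 13.5. Since 81.1% of all protein-coding genes had a region, the presence of one says little for these lists. Their medians stand beside 8.48 for all genes and 6.74 for the 73 histone genes.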

How the data were processed

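ATAC-seq was run on 2 samples of 1 group, which share 1 deposited list on GRCh38, the build named in the submitters' processing notes. The aligner and peak caller were not given in the sources used here, and library depths were not analysed. The columns follow the narrowPeak layout: the authors deposited a fold over background, −log10 p and −log10 q values, a score and a summit offset, per the layout of the file, for each of 236878 rows. The fold served to describe and rank regions, the −log10 p only as a filter, and the score and −log10 q were not used. Rows that name identical coordinates count as 1 region.

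Starts came from GENCODE release 44, and sequence from hg38. A match was an exact string on either strand. Coverage is the share of the canonical transcript span inside regions. Python 3.11.15, pandas 2.3.3, numpy 2.4.6, scipy 1.17.1 and pysam 0.24.0 were used, and the scripts were tested on simulated data. The members, lists, strings and alternatives were chosen with earlier results of these data known. Genes named singly followed a rule: members by family order and absence of a region, and in each related list the 3 highest and those without a region. With no value per sample there was no test and no comparison between replicates. Alternatives changed the window, the start used, the summits, the −log10 p limit, the linking distance and the string window. Values of 1 member are not reported here singly, and it is kept in the counts and medians.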

Additional observations from a re-analysis of the deposited data

How the results depend on the processing

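Of 36 alternatives to the counts and medians, 34 kept the value within 1.5 times the count or within the interval of the median, none reversed, and 2 moved. The count of histone windows with the H1 box string fell from 11 to 7 in a window of 150 bp upstream to the start. The count with the E2F strings rose from 2 to 5 in a window from 500 bp upstream to 50 bp downstream. The number of histone genes with a region stayed between 62 and 67, the lowest value counting only the 66 genes with a stem-loop. The median fold stayed between 6.54 and 7.24, and the number of regions between 74 and 93, the lowest with −log10 p above the median of the list. Between 11 and 12 divergent pairs shared a region. A region over the canonical start in place of a summit near it (67 genes) and 1 value per distinct strongest region (median 6.74) were added after seeing the data. No paired analysis was possible because both samples share 1 list with no values per sample, and for the same reason no sample could be left out.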

Other observations

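Histone pseudogenes were looked at after the values of the genes had been seen. Of 8 histone pseudogenes within the clusters, 6 had a summit within 1 kb of an annotated start, against 81.1% of protein-coding genes. In all 6 it belonged to a region that was also at the start of a histone gene. No share over all pseudogenes was taken, so the count only describes these genes. Outside the clusters, H2AC3P (chr6:25882026-25882395), a processed copy, had a fold of 16.0, and H2BC27P (chr1:228464213-228464594), just past the cluster of H2AC25 and H2BC26, had 11.5. Over all annotated starts, the highest fold among the protein-coding members was 15.9, at H2BC6. H2AC2P and H2BC2P, which lie near the closed testis pair H2AC1/H2BC1, had no region at a start.

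The 20033 protein-coding windows were also divided into 10 steps of equal size by the ratio of observed to expected CpG. In each of the 7 steps above a ratio of 0.546, the median fold of the histone genes was below that of all genes. It was 4.71 against 10.2 in the step from 0.694 to 0.775 (12 of 13 histone genes with a region, 96.9% of all genes), where the histone genes were most numerous but for 1 step. In the 3 highest steps the medians lay closer, at 7.84 against 10.1, 8.58 against 9.80 and 8.08 against 9.51, with regions at 6 of 7, 11 of 11 and 6 of 6 histone genes. In the step from 0.318 to 0.546 the order was the other way, with 8 of 8 histone genes, median 8.34, against 61.2% and 4.60. The 2 lowest steps hold 2 histone genes each. These are descriptions of small groups with no test.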
